A study of Mus musculus with 2 samples.

Results

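Transcripts that belong to the gut epithelium were counted in macrophages sorted from mouse small intestine. The set has 34 of the 27998 genes in the count tables, chosen by name. It holds every gene whose symbol starts with Defa (13 genes), the Paneth cell lysozyme Lyz1, 3 Reg3 lectins and 6 enterocyte genes (Fabp1, Fabp2, Fabp6, Rbp2, Apoa1, Apoa4). The rest are 6 epithelial structure genes (Epcam, Krt8, Krt18, Krt19, Vil1, Cdh17) and 5 goblet genes (Spink4, Itln1, Zg16, Muc2, Tff3). The question was in which cells these RNAs lay, and whether they were spread evenly over all cells or concentrated in few.

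The study compared 2 single-cell libraries. The wild-type (WT) library came from male C57BL/6J mice supplied by Janvier. The CCR2-/- library came from JAX strain #:004999, bred in-house, which lacks CCR2, a chemokine receptor needed for monocytes to reach the blood and tissues. For each genotype 3 to 4 small intestines were pooled after mucus and epithelium had been stripped off, digested with Liberase TL, and sorted as live CD45+ CD11b+ MHCII+ CD64+ cells negative for CD3, TCRb, B220, SiglecF, Ly6C and Ly6G. Libraries were made with the 10x Genomics single cell 3′ v2 chemistry. The WT cells were divided over 2 lanes, told apart by the barcode suffix. Genotype, supplier and breeding differ together between the libraries and cannot be told apart. With 1 pooled library per genotype there is no replicate and no test. The intervals given here are 95% exact intervals that cover counting error only.

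Paneth cells sit at the base of the small intestinal crypts and secrete antimicrobial peptides, above all the alpha-defensins, together with lysozyme. Enterocytes line the villi and carry fatty acids, retinol, bile acids and lipoproteins, with some of their genes used in the upper and others in the lower small intestine. Goblet cells secrete mucus proteins. Macrophages of the lamina propria lie beneath this epithelium and take up dead cells. The genes counted here are best known from the epithelium.

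The alpha-defensins are close copies of each other on chromosome 8, so how far their reads can be told apart bears on every count below. The coding sequences of 3 of them are shown because Defa24 gave the most UMIs, Defa17 differed most among the alpha-defensins between the libraries, and Defa20 cannot be told from other copies at its 3′ end. They were read from the mm10 genome (GRCm38) with GENCODE M21 exons, run 5′ to 3′ on the plus strand, and capitals mark bases that differ from, or have no partner in, Defa24 after alignment. The genes span chr8:21734494-21735471 (Defa24), chr8:21655780-21656735 (Defa17) and chr8:21509258-21510237 (Defa20).
Defa24: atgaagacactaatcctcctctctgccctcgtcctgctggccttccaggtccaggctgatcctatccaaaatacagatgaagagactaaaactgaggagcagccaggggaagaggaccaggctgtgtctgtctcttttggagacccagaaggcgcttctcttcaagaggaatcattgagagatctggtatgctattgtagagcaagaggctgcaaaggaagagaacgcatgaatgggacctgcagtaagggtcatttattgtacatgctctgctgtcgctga
Defa17: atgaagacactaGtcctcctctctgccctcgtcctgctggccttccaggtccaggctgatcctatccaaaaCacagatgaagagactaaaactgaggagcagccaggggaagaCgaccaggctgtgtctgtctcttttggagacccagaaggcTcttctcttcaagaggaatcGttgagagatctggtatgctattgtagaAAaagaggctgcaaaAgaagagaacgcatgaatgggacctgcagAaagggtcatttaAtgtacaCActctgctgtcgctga
Defa20: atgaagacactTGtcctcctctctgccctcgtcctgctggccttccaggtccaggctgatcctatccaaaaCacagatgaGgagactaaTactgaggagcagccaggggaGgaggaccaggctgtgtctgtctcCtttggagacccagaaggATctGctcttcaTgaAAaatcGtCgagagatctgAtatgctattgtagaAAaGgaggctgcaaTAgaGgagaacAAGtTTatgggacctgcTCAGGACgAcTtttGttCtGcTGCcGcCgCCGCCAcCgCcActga
Defa17 differs from Defa24 at 12 of 282 coding bases (95.7% identity), while Defa20 has 81.6% identity to Defa24. In the last 300 bases of the transcript, where 3′ reads fall, none of the 90-base windows of Defa24 occurs in another annotated gene. For Defa17, 86.7% of these windows also occur in Defa3, and for Defa20, 99.5% also occur in Defa2, Defa32 or Defa33. Defa21 and Defa22, with 99.3% coding identity, share 38.9% of theirs with each other. Counts of Defa17, Defa20, Defa21 and Defa22 are therefore uncertain between these copies, and the summed Defa count is the safer value. None of the windows of the Reg3, enterocyte, structure or goblet genes occurs in another gene, and Lyz1 shares 7.11% with Lyz2. With 50-base windows the Reg3, enterocyte, structure and goblet genes still share none. At that length Defa24 shares 27.5% with Defa23, Defa30 or Defa31, and Lyz1 shares 21.9% with Lyz2. Defa21 and Defa22 then share 64.5% and 66.1% with each other or further copies. As the read length is not given, the Defa24 and Lyz1 counts may also hold reads of these other genes.

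Barcodes under 200 genes or over 10% mitochondrial UMIs were left out. A UMI (unique molecular identifier) counts 1 captured RNA molecule. The WT library had 3016 kept cells with a median of 6129 UMIs (lane 1 2109 cells, lane 2 907 cells), and the CCR2-/- library had 2612 cells with a median of 2439. Levels are therefore given as counts per 1000000 UMIs (CPM), and shares of cells were also computed after thinning each cell to 1000 UMIs, which left out 1 WT and 196 CCR2-/- cells. The deleted gene's transcript, Ccr2, stood at 331 CPM in WT and 6.88 CPM in CCR2-/- cells; which part of the gene the allele lacks is not given in the sources used here. Of 16 joint clusters, 9 carried the macrophage markers (C1qa, C1qb, C1qc, Csf1r and others) and held 74.7% of WT and 93.9% of CCR2-/- cells. A cluster that also carried monocyte markers held 654 WT and 34 CCR2-/- cells, and a mixed cluster led by epithelial genes held 66 and 30. Clustering left the 34 genes out but kept other epithelial genes. Lane 1 shared 5 barcodes with lane 2 and 6 with the CCR2-/- library.

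Without Lyz1, the set gave 9786 UMIs in WT (473 CPM) and 3116 in CCR2-/- cells (429 CPM). Of WT cells 36.7% held at least 1 such UMI, and of the shallower CCR2-/- cells 21.2%. After thinning, these shares were 12.4% in WT (11.2 to 13.6) and 10.9% in CCR2-/- (9.67 to 12.2), with overlapping intervals. The unthinned shares are therefore not compared between the libraries. Without thinning, the same UMIs laid down in proportion to each cell's depth, the even-spread share, would have reached 88.9% and 63.5% of cells. In WT, 54 cells (1.79%) with 20 or more of these UMIs held 72.3% of them, and in CCR2-/-, 12 cells (0.459%) held 66.1%. The RNAs thus lay mostly in few cells in both libraries, with a thin layer of cells holding 1 UMI (571 WT and 366 CCR2-/- cells) around them.

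The concentration was measured for each gene with at least 50 UMIs. Over all genes the cells with a UMI numbered under 0.5 of the even-spread share for 1.02% of 10106 genes in WT and for 1.36% of 8587 in CCR2-/-. Among the members with that many UMIs, 13 of 19 in WT and 8 of 11 in CCR2-/- lay under it. The median member had 84.4% of its UMIs in the 1% of cells with most of them in WT (median of all genes 16.2%), and 83.4% in CCR2-/- (23.6%). For scale, that share was 3.99% in WT for the macrophage gene C1qa and 95.6% for Jchain, a plasma cell gene. Lyz1 lay lowest of the members in both libraries.

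**Figure D1:**
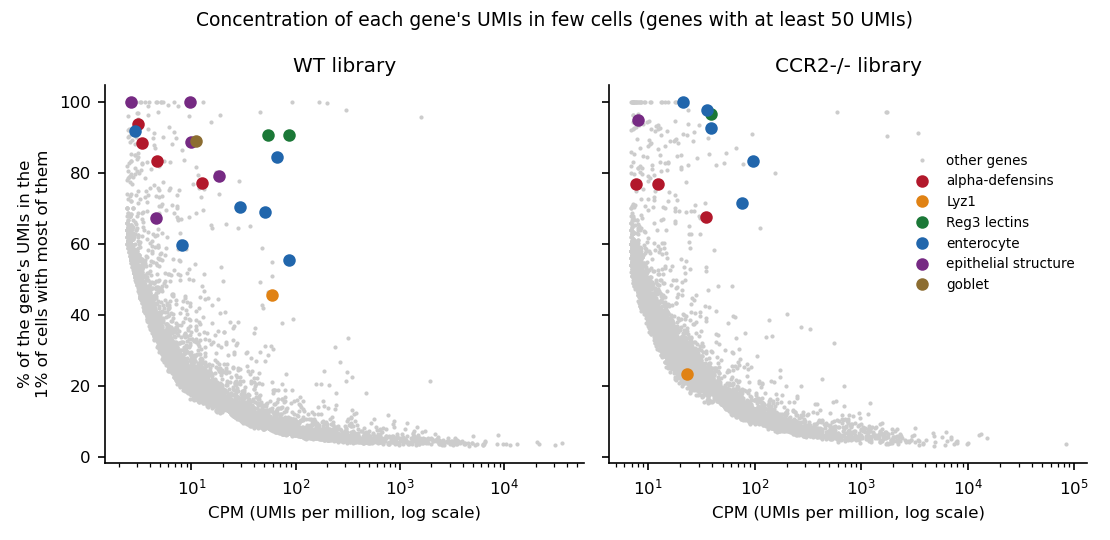
Percent of each gene's UMIs held by the 1% of cells with most of them (vertical) against the gene's level in CPM on a log scale (horizontal), for genes with at least 50 UMIs in the WT (left) and CCR2-/- (right) libraries. Grey points are other genes and coloured points members; Lyz1 lies at 45.8% in WT and, within the main band of genes, at 23.5% in CCR2-/-, and all other members lie above the band.

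Between the libraries, 9.04% of 7401 genes with a mean of at least 10 CPM were at least 2-fold higher in CCR2-/- cells and 3.12% at least 2-fold lower, with a median log2 ratio of 0.18 (CCR2-/- to WT, 1 CPM added). Of the 11 members at that level, Defa24, Apoa1 and Apoa4 were past the higher bound, and Lyz1, Reg3b, Reg3g, Fabp6 and Krt8 past the lower. Between the WT lanes, which carry the same pooled cells, 0.0428% of 7014 genes were 2-fold higher in lane 2, 1 of the 3 being Defa24. Lower there were 0.684% of genes, Reg3b, Reg3g, Fabp6 and Krt8 among them. In WT these 5 members had 77.2% to 90.6% of their UMIs in the richest 1% of cells. A library difference of a member is therefore read beside its lane difference.

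**Figure D2:**
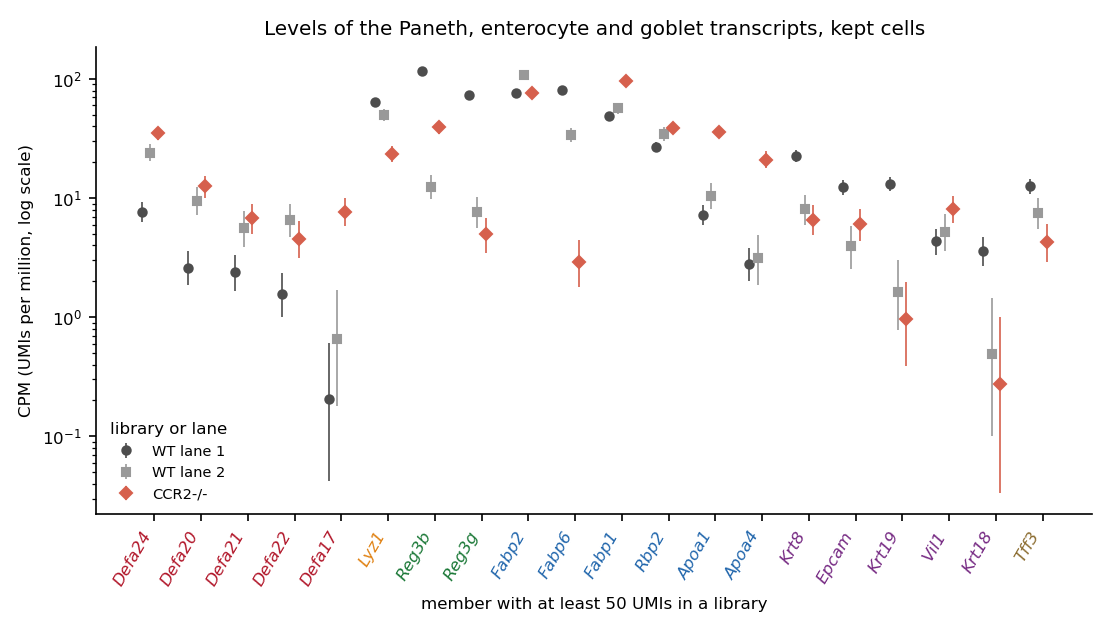
Level of each of the 20 members with at least 50 UMIs in a library, in CPM on a log scale, for WT lane 1 (circles), WT lane 2 (squares) and CCR2-/- (diamonds), with bars for the 95% Poisson interval. Reg3b, Reg3g, Fabp6 and Krt8 differ between the WT lanes by more than their intervals, and Defa17, Apoa1 and Apoa4 stand higher in CCR2-/- than in either lane.

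The alpha-defensins, the Paneth cell's pore-forming antimicrobial peptides, gave 533 UMIs in WT (25.8 CPM, interval 23.6 to 28.1) and 544 in the shallower CCR2-/- library (74.9 CPM, 68.7 to 81.4). The WT lanes stood at 15.4 and 50.6 CPM. The log2 ratio of CCR2-/- to WT was 1.5 (1.33 to 1.67), being 2.21 against lane 1 and 0.56 against lane 2. All 3 values lie above 0, but lane 2 to lane 1 itself had a log2 ratio of 1.66. Leaving out the 1% of cells with most of these UMIs, the levels were 7.44 CPM in WT (lanes 6.67 and 9.94) and 28.5 CPM in CCR2-/-, so the libraries stood further apart and the lanes nearer together. After thinning, 1.43% of WT cells (1.03 to 1.92) and 3.64% of CCR2-/- cells (2.93 to 4.47) held an alpha-defensin UMI, against 5.01% and 6.74% before.

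Defa24 led with 259 UMIs in WT (112 in lane 1, 147 in lane 2) and 254 in CCR2-/-. Its level was 7.69 and 24.1 CPM in the lanes and 35.0 CPM in CCR2-/- cells. Defa20 stood at 2.61, 9.50 and 12.5 CPM in the same order. The near-identical pair differed less, Defa21 at 2.40, 5.57 and 6.74 CPM, and Defa22 at 1.58, 6.55 and 4.54 CPM. Only for Defa22 among these 5 named alpha-defensins was lane 2 above CCR2-/-. Defa17, the copy closest to Defa24 in the sequences printed above, gave 3 UMIs in lane 1, 4 in lane 2 and 56 in CCR2-/- (0.206, 0.655 and 7.71 CPM, log2 ratio to WT 2.70, 2.24 to 3.02). The other 8 alpha-defensins had 0 to 29 UMIs per library. Defa2 and Defa-rs7 had none, which allows up to 0.145 CPM in WT and 0.413 CPM in CCR2-/-, but all of their 90-base windows occur in other genes as well.

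Defa24 took a like share of the alpha-defensin UMIs in the richest and the other cells of both libraries, while Defa17 and, less clearly, Defa22 differed between the libraries. Defa24 made up 48.8% of the alpha-defensin UMIs in the 30 richest WT cells and 48.0% in the other WT cells, and 46.9% and 46.3% in CCR2-/-. Defa17 made up 1.31% in WT (0.530 to 2.69) and 10.3% in CCR2-/- (7.87 to 13.2). Its UMIs lay in 6 WT and 39 CCR2-/- cells, and its share in CCR2-/- was 9.14% in the 26 richest cells and 12.2% in the others. Lanes 1 and 2 gave 1.34% and 1.29%. Defa22 went the other way, with 11.8% in WT (9.20 to 14.9) and 6.07% in CCR2-/- (4.21 to 8.41). These shares are free of depth and of the number of cells, but depend on how reads were split between copies.

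**Figure D3:**
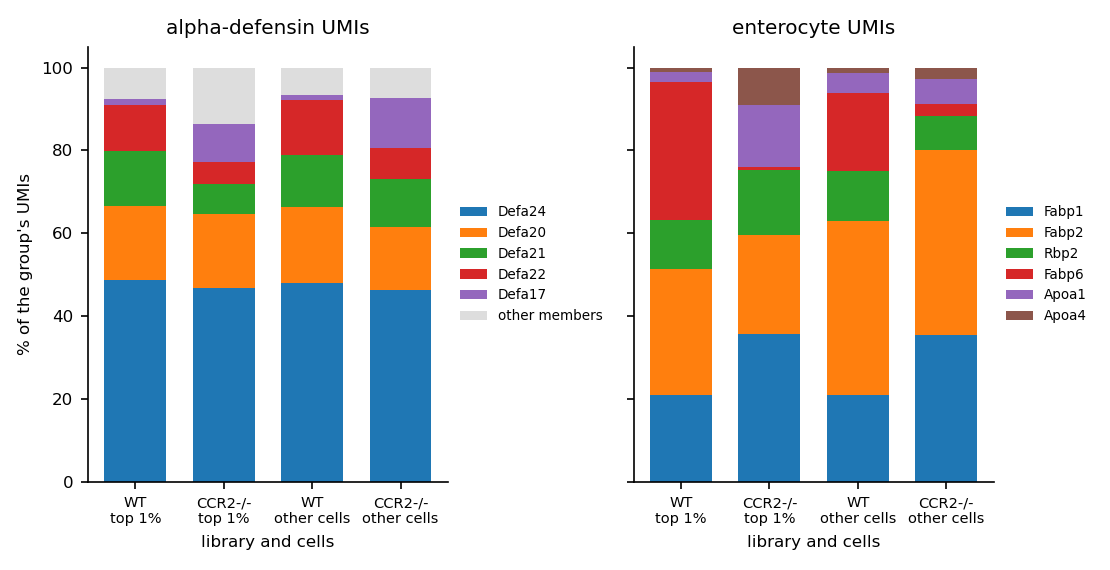
Share of each gene in the alpha-defensin UMIs (left) and enterocyte UMIs (right), in percent, for the 1% of cells with most UMIs of the group and for the other cells of each library. Defa24 takes 46.3% to 48.8% in all 4 columns, Defa17 is visible mainly in CCR2-/-, and Fabp6 is wide in WT and thin in CCR2-/-.

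Cells with 5 or more alpha-defensin UMIs numbered 17 in WT and 22 in CCR2-/- and held 63.4% and 59.4% of these UMIs. They were macrophage-like by their other genes: 15 of the 17 and 21 of the 22 fell in macrophage-like clusters, the other 2 WT cells in the monocyte-marker cluster and the other CCR2-/- cell in the mixed epithelial cluster. Their complement C1q UMIs ranged from 2 to 344 in WT and from 7 to 59 in CCR2-/-. The richest WT cell, in lane 2, had 128 alpha-defensin UMIs of 8 genes, 23 goblet UMIs and 171 C1q UMIs among 8731. The richest CCR2-/- cell had 58 of 7 genes with 41 C1q UMIs among 5649. The median such cell held UMIs assigned to 4 different Defa genes in both libraries, with a range of 1 to 8 in WT and 1 to 9 in CCR2-/-. Because reads may be split between close copies, the number of genes that gave these transcripts is uncertain. Of the 10 richest cells in each library, 8 in WT and 10 in CCR2-/- were macrophage-like, none was in the mixed epithelial cluster, and their alpha-defensin UMIs ran from 9 to 128 and from 10 to 58.

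Lyz1, lysozyme of Paneth cells (chr10:117287797-117292868), behaved unlike the alpha-defensins. It gave 1234 UMIs in WT (59.7 CPM, lanes 63.8 and 49.9) and 170 in CCR2-/- (23.4 CPM, log2 ratio -1.31, -1.54 to -1.09). Per 1000 UMIs of Lyz2, the lysozyme of macrophages, whose own level was 8740 CPM in WT and 3203 CPM in CCR2-/-, there were 6.83 Lyz1 UMIs in WT (6.45 to 7.22) and 7.30 in CCR2-/- (6.25 to 8.49). Macrophage-like cells alone gave 5.60 (5.17 to 6.04) and 7.37 (6.28 to 8.59), and all cells without the 10 with most Lyz1 gave 4.52 (4.21 to 4.84) and 6.42 (5.42 to 7.54). With the WT lanes pooled, neither of these 2 pairs of intervals overlapped, with CCR2-/- higher in both. For macrophage-like cells, lane 1 gave 6.26 (5.73 to 6.84), which overlaps the CCR2-/- interval, and lane 2 gave 4.12 (3.49 to 4.84). The lanes thus differed more from each other than lane 1 did from CCR2-/-. However, 1 macrophage-like cell held 176 of the 503 Lyz1 UMIs behind the lane 1 value. That value, its overlap with CCR2-/- and the lane difference therefore rest largely on 1 cell. Without the 10 cells with most Lyz1 in each lane, they gave 4.35 (3.98 to 4.74) and 3.72 (3.23 to 4.26), both under the CCR2-/- interval. Cells with and without an alpha-defensin UMI had 6.54 and 6.85 in WT and 7.62 and 7.27 in CCR2-/-, with overlapping intervals. The 10 WT cells with most Lyz1 (17 to 176 UMIs) held no alpha-defensin UMI, and 9 of them were in the monocyte-marker cluster. That cluster had 9.49 Lyz1 per 1000 Lyz2 UMIs against 5.60 in macrophage-like WT cells. In CCR2-/- 5.97% of cells held a Lyz1 UMI against an even-spread share of 6.23%. Lyz1 and Lyz2 reads could be split by the authors' counting, as their 3′ ends share windows.

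The Reg3 genes encode secreted antibacterial lectins of the epithelium. Reg3b gave 1712 UMIs in lane 1, 76 in lane 2 and 285 in CCR2-/- (118, 12.4 and 39.2 CPM). Reg3g gave 1076, 47 and 36 UMIs (73.8, 7.70 and 4.96 CPM). A single lane 1 cell held 1155 of the Reg3b and 757 of the Reg3g UMIs, and a single CCR2-/- cell held 250 and 32. The group's log2 ratio of CCR2-/- to WT was -1.49 with both lanes, and 1.14 against lane 2 alone, with 320 of the 363 CCR2-/- UMIs in that 1 cell. Reg3g was also lower against lane 2 alone (-0.55). A Reg3 UMI was in 6.505% of lane 2 cells and 1.68% of CCR2-/- cells. Without the 1% of cells with most, the levels were 15.01 CPM in WT (lanes 17.3 and 9.81) and 2.51 CPM in CCR2-/-. Of the 44 CCR2-/- cells with a Reg3 UMI, 43 held 1, so the 26 cells left out there included cells with 1 UMI. In WT no cell with 1 UMI was left out, and these levels are not compared. Outside the mixed epithelial cluster the levels were 16.4 CPM in WT (14.7 to 18.3) and 5.74 CPM in CCR2-/- (4.12 to 7.79). Reg3a had 30 UMIs in WT and 42 in CCR2-/-.

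The enterocyte genes were the most abundant group, with 5037 UMIs in WT (244 CPM, lanes 242 and 246) and 1966 in CCR2-/- (271 CPM). The log2 ratio was 0.15 (0.08 to 0.23), under the 0.18 of the median gene, and -0.040 with median-of-ratios scaling. In CCR2-/- 1 cell held 1261 of the 1966 UMIs. Without the 1 richest cell of each library the log2 ratio was -1.19, and without the richest 1% it was -0.93 (101 CPM in WT and 52.7 in CCR2-/-). The remaining CCR2-/- cells thus stood lower while the totals were nearly equal. After thinning, 8.49% of WT (7.52 to 9.54) and 5.88% of CCR2-/- cells (4.97 to 6.89) held an enterocyte UMI, against 25.0% and 12.1% before. The total level and the share order the libraries differently, and no order is read from the share.

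Fabp2, the intestinal fatty acid binding protein, stood at 76.4 CPM in lane 1, 107 CPM in lane 2 and 75.7 CPM in CCR2-/-. Fabp1, a fatty acid binding protein shared with liver, stood at 48.7, 56.8 and 96.2 CPM, and Rbp2, which carries retinol, at 27.0, 34.6 and 38.8 CPM. The richest CCR2-/- cell held 450 of 699 Fabp1, 265 of 550 Fabp2 and 188 of 282 Rbp2 UMIs. Apoa1 and Apoa4, apolipoproteins of the lipid particles that enterocytes export, gave 169 and 60 UMIs in WT and 261 and 153 in CCR2-/-. That same CCR2-/- cell held 219 and 139 of these, and without the richest 1% of cells Apoa1 stood at 3.33 CPM in WT and 0.839 CPM in CCR2-/-. The higher Apoa1 and Apoa4 totals in CCR2-/- (log2 ratios 2.01 and 2.50) therefore rest on 1 cell.

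Fabp6, the bile acid binding protein of the lower small intestine (chr11:43596049-43601540), had the largest log2 ratio in size of all members. It gave 1172 UMIs in lane 1, 207 in lane 2 and 21 in CCR2-/- (80.4, 33.9 and 2.89 CPM, log2 ratio to WT -4.12, -4.61 to -3.64). In WT 169 cells held it and in CCR2-/- 12 cells. It made up 27.4% of the enterocyte UMIs in WT (lanes 33.2% and 13.8%) and 1.07% in CCR2-/-. Outside the richest 1% of cells it still made up 18.8% in WT (17.1 to 20.5) and 2.92% in CCR2-/- (1.47 to 5.16). Both lanes and both layers of cells lay on the same side.

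Within cells, Fabp6 was set beside the pair Fabp1 and Rbp2, which are used more in the upper small intestine. Of the 3016 WT cells, 27 held Fabp6 and 1 or both of the pair, 142 Fabp6 alone and 280 the pair alone. Of the 32 WT cells with 5 or more Fabp6 UMIs, 4 held any Fabp1 or Rbp2, against 10.2% of all WT cells. Of the 52 with 5 or more Fabp1 and Rbp2 UMIs, 2 held any Fabp6, against 5.60% of all. Both counts lie near the shares over all cells. Of the 2612 CCR2-/- cells, 1 held both, 11 Fabp6 alone and 160 the pair alone.

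Most cells with enterocyte RNA also carried macrophage RNA. Of the 142 WT cells with 5 or more enterocyte UMIs, 132 held at least 20 C1q UMIs, and 18 of 21 did in CCR2-/-. By cluster, 76 of the WT cells were macrophage-like, 56 in the mixed epithelial cluster and 9 in the monocyte-marker cluster. The richest few differed from these. The cell with most member UMIs in WT had 2713 (386 enterocyte, 1915 Reg3 and 412 structure UMIs) among 25381, with 11 C1q UMIs and none of Ptprc, the gene of the CD45 antigen used in the sort. The WT cells ranked 3 and 4 had 413 and 294 enterocyte UMIs among 2669 and 1682, and no C1q or Ptprc UMI. By contrast, the cells ranked 5 to 7 had 160 to 212 enterocyte UMIs with 162 to 223 C1q UMIs and 7 or 8 of the 8 macrophage markers. The richest CCR2-/- cell had 1666 member UMIs among 12855 with 4 C1q and 2 Ptprc UMIs. Whether a barcode with both kinds of RNA stands for 1 cell or more was not tested. Of the 54 WT cells with 20 or more member UMIs, 1 was removed in the alternative without likely doublets, and of the 12 in CCR2-/- none was. Over all cells that alternative removed 36 of 2109 in lane 1, 7 of 907 in lane 2 and 55 of 2612 in CCR2-/-. The number removed was fixed in advance from an assumed doublet rate, so these counts cannot tell whether such barcodes hold 1 cell or more.

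UMIs of the structure genes lay mostly in the richest 1% of cells (79.0% in WT and 77.6% in CCR2-/-). Epcam, an adhesion protein of epithelial cells, stood at 12.3 CPM in lane 1, 3.93 CPM in lane 2 and 6.06 CPM in CCR2-/-. The keratins of simple epithelium stood at 22.6, 8.02 and 6.61 CPM (Krt8), 3.57, 0.491 and 0.275 CPM (Krt18) and 13.2, 1.64 and 0.963 CPM (Krt19). A single lane 1 cell held 182 of the 379 Krt8 and 139 of the 202 Krt19 UMIs of WT. Vil1, which bundles actin in the brush border, stood at 4.32, 5.24 and 8.12 CPM, with 27 of 59 UMIs in CCR2-/- in 1 cell. The adhesion gene Cdh17 had 20 and 10 UMIs. The group's log2 ratio to WT was -0.95 (-1.18 to -0.72) with both lanes and 0.24 against lane 2 alone.

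Of the goblet genes only Tff3, a trefoil peptide of mucus, reached 50 UMIs, with 183 in lane 1, 46 in lane 2 and 31 in CCR2-/- (12.6, 7.53 and 4.27 CPM). Spink4, Zg16, Itln1 and Muc2, which goblet cells secrete into the mucus, had 2 to 42 UMIs per library. The group stood at 15.5 CPM in WT and 10.0 CPM in CCR2-/- (log2 ratio -0.58, -0.93 to -0.24), and at 2.73 and 1.67 CPM without the richest 1%. Of the 38 CCR2-/- cells with a goblet UMI, 29 held 1, so the 26 cells left out there included cells with 1 UMI. In CCR2-/- 6 of the 26 cells richest in goblet UMIs were also among the 26 richest in alpha-defensins, and in WT 1 of 30. Each such set was 1% of the cells of its library. Because the CCR2-/- set took in tied cells with 1 goblet UMI, its count depends on which of them were taken, and the libraries are not compared.

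Cells rich in alpha-defensin RNA could not be told from other cells in how often they held enterocyte RNA. No WT cell and 1 CCR2-/- cell had 5 or more UMIs of both, where cells with 5 or more enterocyte UMIs were 4.71% of all WT and 0.804% of all CCR2-/- cells, so little overlap could be seen at these numbers. Of the 17 WT cells with 5 or more alpha-defensin UMIs 2 held any enterocyte UMI (11.8%, 1.46 to 36.4), and of the 22 in CCR2-/- 4 did (18.2%, 5.19 to 40.3), intervals that take in the 25.0% and 12.1% of all cells. Goblet UMIs were found in 4 of these 17 and 7 of these 22 cells, against 2.85% and 1.45% of all cells. Enterocyte, structure and Reg3 RNAs in contrast shared cells in WT: of the 142 cells with 5 or more enterocyte UMIs, 67 held a structure UMI and 62 a Reg3 UMI, against 6.53% and 9.75% of all cells. The mixed epithelial cluster held 65.0% of the enterocyte but 1.5% of the alpha-defensin UMIs in WT, and 79.2% and 1.10% in CCR2-/-.

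**Figure D4:**
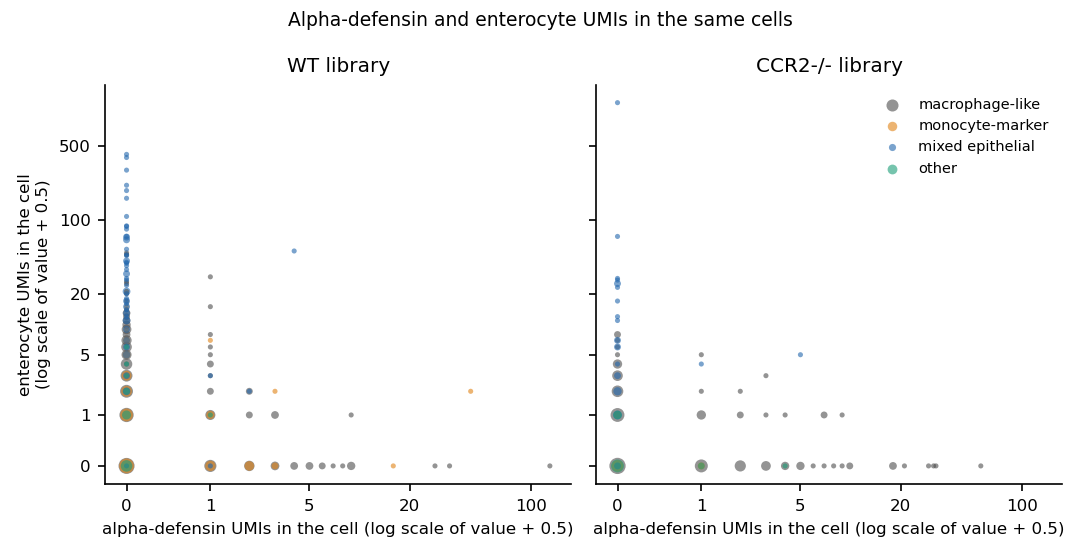
Each circle is a combination of alpha-defensin UMIs (horizontal) and enterocyte UMIs (vertical) in a cell, on log scales of value plus 0.5, with a larger circle for more cells and colours for cell classes, in the WT (left) and CCR2-/- (right) libraries. A single cell, in CCR2-/-, has 5 or more of both, and few cells have 5 or more of either.

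The macrophage-like clusters also differed in which epithelial RNA they held. In CCR2-/- cells, cluster 1 (978 cells, led by Cd209f, Fcna, Bmp2, Ccl7 and Ccl2) held an alpha-defensin UMI in 7.56% of thinned cells (5.90 to 9.52), and cluster 0 (1065 cells, led by Rep15, Vwa1, Plaur and Thbs1) in 1.20% (0.619 to 2.08). The unthinned shares were 11.7% and 2.72%, and the levels 131 and 61.5 CPM. The 4 CCR2-/- cells richest in alpha-defensins (58, 32, 31 and 29 UMIs) lay in cluster 0 and gave most of its 184 such UMIs. Enterocyte UMIs ran the other way, in 3.55% of thinned cells in cluster 1 (2.43 to 5.003) and 5.88% in cluster 0 (4.50 to 7.51). Their levels were 41.9 and 78.2 CPM. In WT, cluster 5 (476 cells, led by Prnp, Serpinf1, Pf4, Ccl8 and Folr2) held alpha-defensin UMIs in 2.73% of thinned cells (1.46 to 4.63) and cluster 4 (545 cells, led by H2-M2, Cd209b, Ccl24 and Gpnmb) in 0.550% (0.114 to 1.60). Their enterocyte shares were 2.10% (1.01 to 3.83) and 13.8% (11.0 to 16.9). The enterocyte order of these 2 clusters was the same in lane 1 (1.82% and 12.3%) and lane 2 (4.11% and 16.8%). For alpha-defensins the lanes gave 1.82% and 0.513%, then 4.79% and 0.645%, with overlapping intervals. All these clusters carried all 8 macrophage markers, and each library filled mainly its own clusters.

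**Figure D5:**
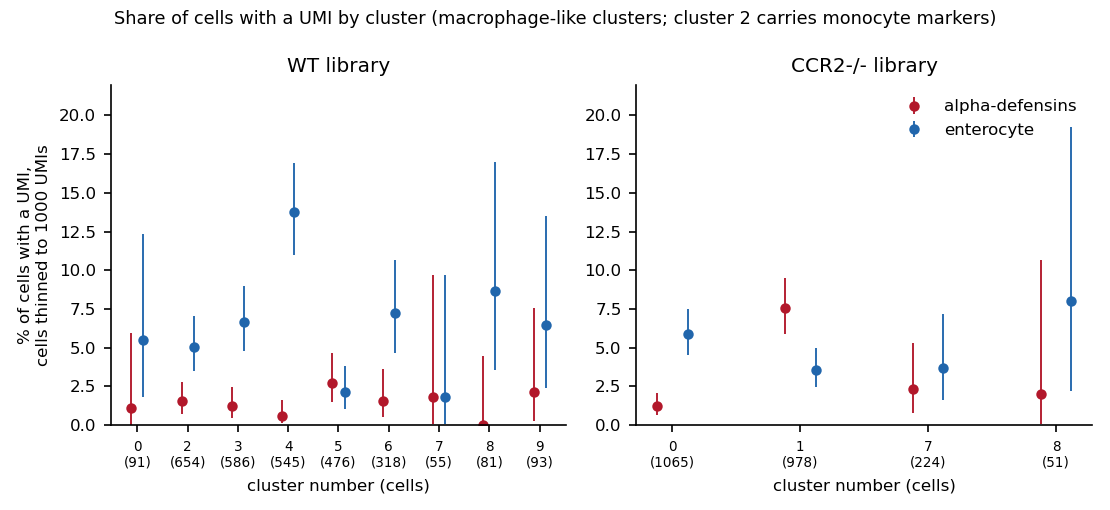
Percent of cells with an alpha-defensin (red) or enterocyte (blue) UMI after thinning each cell to 1000 UMIs, by cluster, for clusters with at least 50 cells of the library, in WT (left) and CCR2-/- (right). Bars are 95% exact binomial intervals; cluster 1 in CCR2-/- stands at 7.56% for alpha-defensins against 1.20% in cluster 0, and cluster 4 in WT at 13.8% for enterocyte genes against 2.10% in cluster 5.

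Cells of other types in the sort held these RNAs too. In the 40 lymphoid-like WT cells (B, plasma, T or innate lymphoid; median 7725 UMIs) the alpha-defensins stood at 2.94 CPM (0.0744 to 16.4) and the enterocyte genes at 67.6 CPM (42.8 to 101), and 27.5% held an enterocyte UMI. Macrophage-like WT cells (median 5491 UMIs) stood at 29.7 and 106 CPM, or 8.27 and 78.5 CPM without their richest 1%, with an enterocyte UMI in 24.3%. The 50 lymphoid-like CCR2-/- cells (median 2235 UMIs) stood at 40.2 CPM (14.7 to 87.4) for alpha-defensins and 20.1 CPM (4.14 to 58.7) for enterocyte genes. Macrophage-like CCR2-/- cells (median 2392 UMIs) stood at 79.9 and 60.6 CPM, or 29.8 and 45.7 CPM without their richest 1%. An alpha-defensin UMI was in 5.06% of macrophage-like and 2.50% of lymphoid-like WT cells, and in 6.89% and 6.00% in CCR2-/-, where an enterocyte UMI was in 11.4% and 6.00%. Thinned to 1000 UMIs, an enterocyte UMI was in 7.46% of macrophage-like (6.41 to 8.62) and 2 of 40 lymphoid-like WT cells (0.611% to 16.9%), so the order turned with depth. With 40 and 50 lymphoid-like cells the intervals of the alpha-defensin and enterocyte shares overlapped in each comparison. The WT alpha-defensin levels did not overlap (26.96 to 32.7 CPM in macrophage-like cells), unless the richest 1% were left out. How the RNA came to lie in cells of either type was not tested. The 39 CCR2-/- cells with fibroblast and endothelial markers held no alpha-defensin UMI, which allows up to 20.005 CPM. Structure genes stood higher in lymphoid-like WT cells (97.0 CPM, 66.8 to 136) than in macrophage-like ones (9.30 CPM, 7.78 to 11.0). A structure UMI was in 15 of the 23 plasma cell-like WT cells (133 CPM). In CCR2-/- the structure levels were 26.8 CPM (7.30 to 68.6) and 8.44 CPM (6.37 to 11.0), with overlapping intervals. The source of the structure UMIs in lymphoid-like cells was not tested, so a structure UMI alone is not read here as a sign of epithelial RNA.

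The thin layer was then compared across depth. With cells sorted into 5 bins of depth and the richest 1% left out, enterocyte UMIs per 100 WT cells went from 30.6 in the shallowest bin (median 2380 UMIs) to 121 in the deepest (12135), while the level went from 128 to 92.7 CPM. For alpha-defensins these WT values were 1.49 and 8.40 UMIs per 100 cells, and 6.23 and 6.44 CPM. In CCR2-/- cells the alpha-defensins went from 6.15 to 9.48 UMIs per 100 cells as the level went from 58.0 to 17.9 CPM. Enterocyte UMIs in CCR2-/- went from 3.44 to 22.3 per 100 cells and from 32.4 to 42.2 CPM, with 51.1 to 64.6 CPM in the bins between. The alpha-defensin counts in CCR2-/- cells thus grew less than depth, and the enterocyte counts in WT grew nearly with it. In CCR2-/- the enterocyte counts grew more than depth between the end bins, but the shallowest bin held only 18 of these UMIs. From the next bin to the deepest the level went from 64.6 to 42.2 CPM, so no growth beyond depth is read from the end bins. Depth also differed by cluster: in CCR2-/- the median was 1983.5 UMIs in cluster 1, where alpha-defensins were more frequent, and 2612 in cluster 0. Depth and cluster were not separated.

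Other epithelial genes, listed apart from the members, were read in the same way. Of 36 other enterocyte genes 35 are in the tables; 21 had at least 50 UMIs in WT and 11 of these lay under 0.5 of the even-spread share, with 10 and 5 in CCR2-/-. Of 19 other Paneth genes 18 are in the tables, and only the defensin Gm15284 (Defa30 in GENCODE) reached 50 UMIs, with 89 in WT and 130 in CCR2-/-. The 9 other goblet genes summed to 43 and 19 UMIs and the 7 enteroendocrine genes to 16 and 4. In the cells richest in enterocyte UMIs, the genes highest over the other cells included Dmbt1, Gsta1, Lypd8, Krt20, Lgals4, Reg1, Phgr1, 2210407C18Rik and Ckmt1 in WT. In CCR2-/- they were Spink1, Guca2b, Pigr, 2200002D01Rik, S100g, Crip1, Plac8, Dstn, Atp5g3 and Dbi. For some of these genes 1 cell held most of the UMIs. In WT it held 59 of 59 for Dmbt1 and 102 of 133 for Lypd8, while Phgr1 lay in 26 of the 30 cells. In CCR2-/- 1 cell held 51 of 53 for Pigr, 116 of 154 for Spink1 and 46 of 62 for Guca2b. In the cells richest in alpha-defensins, Gm15284 led in both libraries (log2 ratio to the other cells 6.73 in WT and 6.76 in CCR2-/-), followed in both by Ccl8, a monocyte-attracting chemokine (1.67 and 1.98). Others there were Ly6a, Fcgrt, Ccl12, Trf, Pf4, Ccl7 and Dab2 in WT, and Gm10269, Adgre1, Gm10036, Ndufa2, Rpl10, Rpl35, Mt1 and Cltc in CCR2-/-, with log2 ratios of 0.66 to 1.56. None of the genes named for these cells besides Gm15284 is on the epithelial lists.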

How the data were processed

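The deposited matrices hold UMI counts per gene and cell, made by the authors with Cell Ranger 3.0.1 on mm10, per the submitters' processing notes; how reads shared by gene copies were assigned, and the read length, are not given in the sources used here. The members and lists were chosen with earlier results of these data known. Cells with under 200 genes or over 10% mitochondrial UMIs were left out (38 WT and 162 CCR2-/-). Kept cells held 20678108 WT and 7265386 CCR2-/- UMIs. CPM and exact Poisson intervals, Clopper-Pearson intervals for shares, and conditional binomial intervals for ratios were computed with scipy 1.17.1. Because there is 1 library per genotype, no test was run. Thinning drew 1000 UMIs per cell without replacement. Clustering used scanpy 1.11.5 and leidenalg 0.10.2 (2000 variable genes, 30 components, resolution 0.8). Scrublet's automatic threshold marked 0, 6 and 6 cells of lane 1, lane 2 and CCR2-/- and was not relied on; the main values keep all cells, and an alternative removed the top scores (36, 7 and 55 cells). Members with at least 50 UMIs in a library were named, with the 10 leading non-member genes of the richest cells, of which some, and 1 gene list, are not reported here. The measures were tested on simulated counts. Intervals and floors (3 counts) cover counting error only.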

Additional observations from a re-analysis of the deposited data

Results flagged for a closer look

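The cells left out for few genes or many mitochondrial UMIs (38 WT and 162 CCR2-/- cells) lie outside all values above and held the same RNAs above the limit that a count of 0 allows. The alpha-defensins stood at 67.8 CPM in WT (6 UMIs, all in 1 cell) and at 91.3 CPM in CCR2-/- (22 UMIs in 7 cells). The enterocyte genes stood at 373 CPM in WT (33 UMIs in 7 cells) and at 141 CPM in CCR2-/- (34 UMIs in 17 cells). A count of 0 would allow 33.9 CPM in WT and 12.4 CPM in CCR2-/-.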

How the results depend on the processing

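The pooled log2 ratios of CCR2-/- to WT kept their direction in all 12 alternatives for the alpha-defensins (0.24 to 2.21), Lyz1 (-2.65 to -0.82) and the goblet genes, and turned for the other groups. For alpha-defensins (1.5) the ratio was 1.25 with 10 CPM added, 1.31 with median-of-ratios size factors, 0.24 per cell without depth scaling, 2.21 and 0.56 against lanes 1 and 2, 1.81 without the richest 1% of cells and 1.72 without the richest cell. Lyz1 (-1.31) gave -1.06 with 10 CPM added, -2.65 per cell, -1.06 against lane 2, -0.82 without the richest 1% and -0.89 in macrophage-like clusters. The Reg3 genes (-1.49) gave -4.66 with at least 500 genes and at most 5% mitochondrial UMIs, -1.68 with size factors, -2.81 per cell, -1.93 and 1.14 against lanes 1 and 2, -2.19 without the richest 1% and -2.87 without the richest cell. The enterocyte genes (0.15) gave -1.38 with that stricter filter, which removes the richest CCR2-/- cell, -0.040 with size factors, -1.15 per cell, -0.93 without the richest 1%, -0.80 in macrophage-like clusters, -1.19 without the richest cell and -0.61 without the mixed epithelial cluster. The structure genes (-0.95) gave -2.13 with the stricter filter, -2.28 per cell, -1.26 and 0.24 against lanes 1 and 2, -0.13 in macrophage-like clusters and -0.047 without the mixed epithelial cluster, and the goblet genes (-0.58) -1.93 per cell. The alternatives without the richest cell and without the mixed epithelial cluster were chosen after seeing the data. In CCR2-/- the richest 1% reached down to cells with 1 UMI for Lyz1 and for the Reg3, structure and goblet genes. Ratios of these groups without the richest 1% are therefore partly set by that cut.

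The share of UMIs in the richest 1% of WT cells was 83.3% for alpha-defensins and 65.3% for enterocyte genes in thinned cells (71.5% and 59.0% unthinned), and 57.1% and 80.6% for alpha-defensins in lanes 1 and 2. For enterocyte genes in CCR2-/- (80.8%) it was 46.6% with the stricter filter and 59.4% thinned. Shares of cells with a UMI grew with the UMIs kept: thinned to 2000 they were 2.51% in WT and 5.83% in CCR2-/- for alpha-defensins and 12.5% and 11.0% for enterocyte genes, and unthinned 5.01%, 6.74%, 25.0% and 12.1%. Lane 2 gave 1.99% for alpha-defensins. Counting genes with any UMI, 1523 genes were at least 2-fold higher in CCR2-/- in place of 669. Apart from what the text names, the causes were not tested. The lower depth of CCR2-/- cells limits what their shares of cells with a UMI can show. No paired analysis was possible because each genotype has 1 library.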
